A study of Saccharomyces cerevisiae with 6 samples.

Results

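Flocculin and adhesin genes of budding yeast were compared between cells lacking NPL3 and wild type cells. The set was fixed by name as 8 genes: the flocculin genes FLO1, FLO5, FLO9, FLO10 and FLO11, the activator gene FLO8, and the mating adhesin genes AGA1 and FIG2. Of these, 7 had a probe set under their symbol among the 5449 genes measured, each of them 1 probe set. FLO5 had none and has no value of its own here.

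Gene expression was read on 6 Affymetrix arrays, each hybridised with biotin-labelled cRNA from the total RNA of 1 culture. The deletion arrays (n = 3) came from strain WNPL3B1-2B, in which the KanMX marker replaces NPL3, and the wild type arrays (n = 3) from strain W303-1A bar1∆. Both strains are MATa cells of the W303 background with BAR1 replaced by HphMX, and both carry the alleles ura3-1, can1-100, trp1-1, ade2-1 and his3-11,15 and the leu2 allele with the mutations numbered 3 and 112. Cultures were grown to mid-log phase in rich medium, written YPAD in the growth protocol and YPD elsewhere in the labels. The arrays of a genotype are labelled as biological replicates, and all 3 deletion arrays share 1 strain name. The deletion group therefore stands for that strain, and a difference between the strains other than NPL3 cannot be told apart from the deletion. In total RNA, more cells expressing a gene and more transcript per cell cannot be told apart either.

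Flocculins are large cell wall proteins anchored by glycosylphosphatidylinositol. Flo1, Flo5, Flo9 and Flo10 bind mannose chains on neighbouring cells and make cells clump, while Flo11 serves adhesion to surfaces, invasive growth and biofilm formation. Most FLO genes lie close to chromosome ends and are kept low in laboratory strains by chromatin and by dedicated repressors. Aga1 and Fig2 belong to a related class of wall proteins that act in mating. Aga1 anchors the a-agglutinin subunit Aga2, and pheromone induces both AGA1 and FIG2. NPL3 encodes an RNA-binding protein that accompanies messenger RNA from transcription to export.

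Copies of flocculin genes are alike, so a probe can read more than 1 of them. The FLO9 probe set carries the s suffix, with which Affymetrix marks probe sets that can match several transcripts. Its signal cannot be given to FLO9 alone, and whether it also reads FLO5 or FLO1 was not tested, since no probe sequences were used here. The probe sets of FLO1, FLO10, FLO11, FLO8, AGA1 and FIG2 carry neither an s nor an x suffix. The reference annotation (assembly R64) gives lengths of 4614 nucleotides for FLO1, 3969 for FLO9, 3228 for FLO5, 3510 for FLO10 and 4104 for FLO11. It gives 2178 nucleotides for AGA1, 4830 for FIG2 and 2400 for FLO8. FLO8 is listed there as a pseudogene, because the reference strain carries a stop codon in it, and the array reads its transcript whether or not a full protein is made.

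The samples were checked against their labels. NPL3 was at 3.80, 4.04 and 4.04 on the deletion arrays and at 10.75, 11.37 and 11.33 on the wild type arrays (log2). A transcript absent per the labels thus still read 3.96 ± 0.14 (SD, n = 3), above the background level of 2.13, which is the 95th percentile of probe sets whose genes are not in the yeast reference. LEU2 was at 8.51 ± 0.12 in the deletion and 2.85 ± 0.07 in wild type (n = 3 each), with 1 and the same leu2 allele in both labels. Hybridization controls averaged 7.99, 8.92 and 9.11 on the deletion arrays and 9.25 to 9.40 on the wild type arrays. Labelling controls averaged 4.60 to 4.99 on the deletion arrays and 3.99 to 4.23 on the wild type arrays. The signal at the 5′ end of a transcript less that at its 3′ end, a sign of RNA quality, had a median over 8 control genes of -0.67, -0.77 and -0.90 on the deletion arrays and -1.14, -1.17 and -1.15 on the wild type arrays. All 3 measures separated the genotypes, and their part in the differences below was not tested.

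Mating type was checked with markers. Of 6 a-specific genes, 5 were above background in both genotypes, among them the pheromone receptor gene STE2 at 11.18 ± 0.03 in the deletion and 11.14 ± 0.01 in wild type (SD, n = 3). BAR1, deleted in both strains, was below it at 1.06 ± 0.26 in the deletion and 1.10 ± 0.15 in wild type. Of the alpha-specific genes, MF(ALPHA)1 read 3.13 in the deletion and 4.02 in wild type. MF(ALPHA)2 read 3.51 in the deletion and 3.72 in wild type, and STE3 read 4.41 in the deletion and 4.35 in wild type. SAG1 read 7.86 in the deletion and 7.38 in wild type, and AFB1 read 7.55 in the deletion and 7.69 in wild type. All 5 were above the background level in both genotypes, so that level does not set these markers apart from the a-specific ones.

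Among the 7 measured genes, FLO1, FLO9 and FLO10 rose and AGA1 fell in the deletion, while FLO11, FLO8 and FIG2 did not pass the test. The changes ran from a rise of 2.55 for FLO1 to a fall of 0.64 for AGA1 on the log2 scale. The count of 4 called of 7 stands beside 61.8% of all genes called in either direction (limma, Benjamini-Hochberg adjusted p under 0.05 over 5449 genes). By direction, 32.9% of all genes were called higher and 28.9% lower. Deletion and wild type arrays were fully separated for 4 of the 7, against 68.8% of all genes. At this background, the count says nothing particular about the set. The members' median difference was 0.16, beside 0.01 over all genes. A fold change of at least 1.5 together with the test was reached by 3 of the 7 (FLO1, FLO9 and AGA1), against 16.9% of all genes. Of these, FLO1 and FLO9 lie on chromosome I, where the median of the 88 other tested genes was itself 1.77-fold higher.

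**Figure D1:**
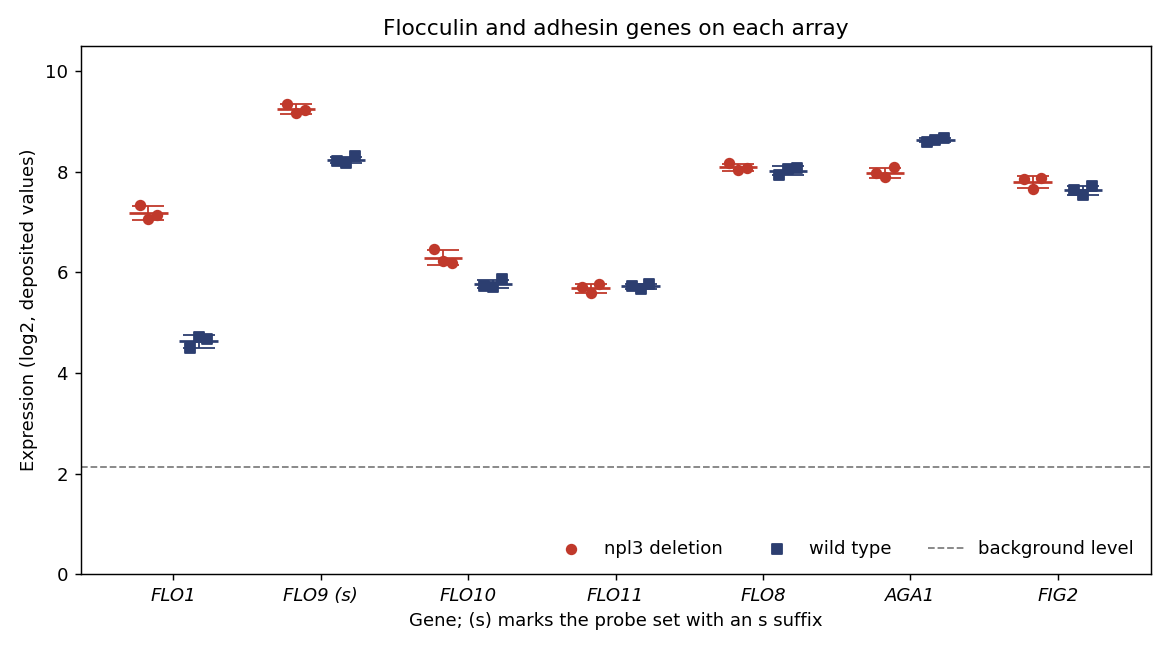
Deposited expression values (log2, vertical axis) of 7 flocculin and adhesin genes on each of 3 npl3 deletion arrays (red circles) and 3 wild type arrays (blue squares), with the mean and SD of each group and the background level of 2.13 as a dashed line. The groups stand apart for FLO1, FLO9, FLO10 and AGA1 and overlap for FLO11, FLO8 and FIG2, and levels of different genes come from different probes and are not comparable.

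FLO1, the main flocculin gene of laboratory strains, showed the largest difference of the 7. It was at 7.34, 7.07 and 7.13 on the deletion arrays and at 4.49, 4.72 and 4.68 on the wild type arrays (log2). Every deletion array lay more than 2 log2 units above every wild type array. The means were 7.18 ± 0.14 in the deletion and 4.63 ± 0.13 in wild type (SD, n = 3 each), a difference of 2.55 (SE 0.09, 95% interval 2.34 to 2.76, limma adjusted p = 7.9e-07), which is a fold of 5.86. Only 0.44% of all genes changed by more, in either direction. The wild type level was 2.50 above the background level, but only 0.67 above the level that NPL3 read in the deletion. Probes differ between genes, and how near FLO1 in wild type lay to the floor of its own probe set was not tested.

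FLO9, which codes for a lectin-like flocculin close to Flo1, was read with the probe set that can match several transcripts. Its signal was 9.34, 9.16 and 9.23 on the deletion arrays and 8.22, 8.17 and 8.31 on the wild type arrays. The groups did not overlap. The means were 9.25 ± 0.09 in the deletion and 8.23 ± 0.07 in wild type (SD, n = 3 each), a difference of 1.01 (SE 0.06, 95% interval 0.87 to 1.16, limma adjusted p = 9.4e-06) and a fold of 2.02. The difference between the changes of FLO1 and FLO9 was 1.54, and the deletion arrays did not overlap the wild type arrays in it (exact permutation p = 0.1, two-sided, which is the floor for 3 arrays a group).

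FLO10, whose product combines flocculation with adhesion, rose as well. It read 6.47, 6.22 and 6.19 on the deletion arrays and 5.73, 5.72 and 5.86 on the wild type arrays. The lowest deletion array was above the highest wild type array. The means were 6.29 ± 0.15 in the deletion and 5.77 ± 0.08 in wild type (SD, n = 3 each), a difference of 0.53 (SE 0.08, 95% interval 0.33 to 0.72, limma adjusted p = 0.00105), a fold of 1.44. Its change was smaller than that of FLO1 by 2.03 (exact permutation p = 0.1, the smallest possible).

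FLO11, the adhesin of invasive growth and biofilms, gave overlapping groups. It read 5.70, 5.59 and 5.76 on the deletion arrays and 5.72, 5.67 and 5.77 on the wild type arrays. The difference was -0.04 (SE 0.06, limma adjusted p = 0.585), and its 95% interval of -0.18 to 0.10 bounds the change on this scale. FLO8, which encodes the transcription factor that activates FLO1 and FLO11 under protein kinase A, read 8.17, 8.03 and 8.07 on the deletion arrays and 7.93, 8.06 and 8.08 on the wild type arrays. The groups overlapped here too, with a difference of 0.06 (SE 0.06, 95% interval -0.08 to 0.21, limma adjusted p = 0.391).

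Of the mating adhesins, AGA1 fell and FIG2 was not called. AGA1, the wall anchor of a-agglutinin, read 7.97, 7.89 and 8.09 on the deletion arrays and 8.58, 8.63 and 8.66 on the wild type arrays. All deletion arrays lay below all wild type arrays. The means were 7.98 ± 0.10 in the deletion and 8.62 ± 0.04 in wild type (SD, n = 3 each), so AGA1 fell by 0.64 (SE 0.06, 95% interval -0.78 to -0.50, limma adjusted p = 7.5e-05), a fold of 1.56.

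FIG2, an adhesin of mating cells related to Aga1, read 7.86, 7.66 and 7.87 on the deletion arrays and 7.64, 7.54 and 7.72 on the wild type arrays. Deletion replicate 2 lay within the wild type range. The difference was 0.16 (SE 0.07, 95% interval -0.01 to 0.33, limma adjusted p = 0.0914) and FIG2 was not called. Without that array FIG2 differed by 0.23 (adjusted p = 0.025) and was called. The changes of AGA1 and FIG2 differed by -0.80, AGA1 minus FIG2, again without overlap between deletion and wild type arrays (exact permutation p = 0.1, the smallest possible, as for each of the 3 pairs compared; 0.1 after Benjamini-Hochberg adjustment).

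**Figure D2:**
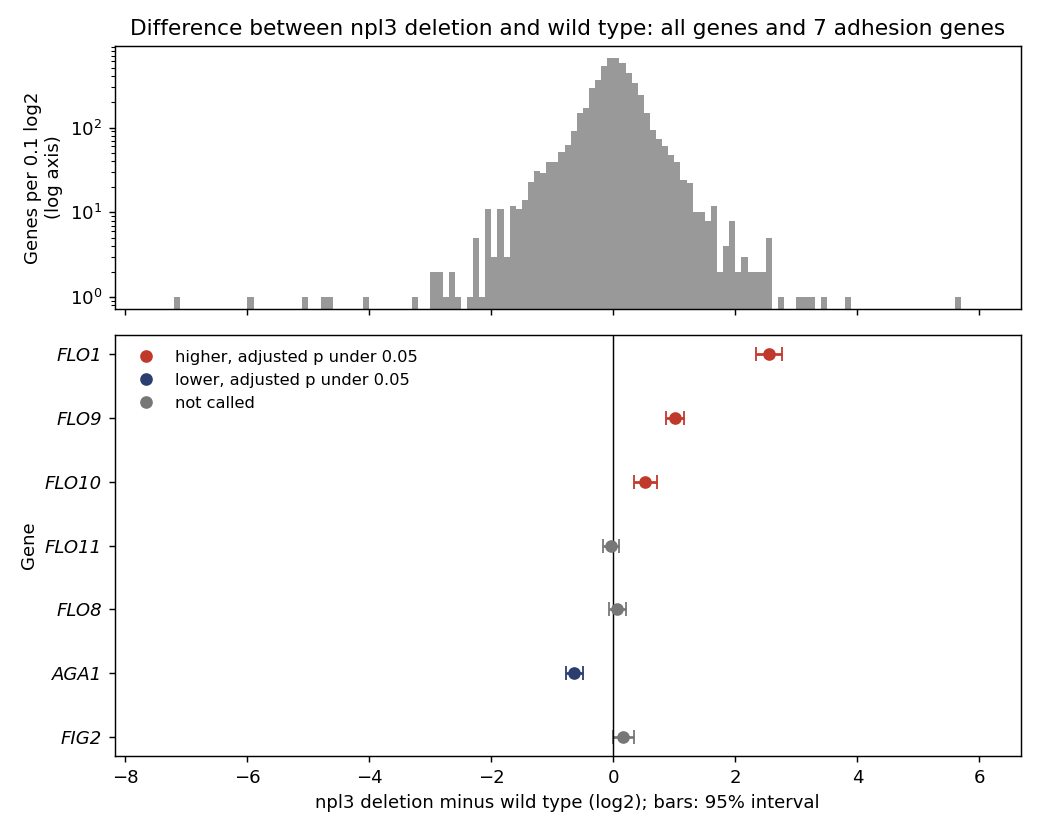
Top, the number of genes (log axis) at each difference between the npl3 deletion and wild type (log2, horizontal axis, bins of 0.1) over all 5449 genes. Bottom, the difference of each of 7 flocculin and adhesin genes with its 95% interval, red where called higher, blue where called lower and grey where not called. FLO1 at 2.55 lies in the sparse right tail, FLO9 at 1.01 and FLO10 at 0.53 nearer the bulk, and AGA1 at -0.64 on the left.

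FLO1 and FLO9 both lie on chromosome I, whose genes stood higher in the deletion as a block. Of the 88 other tested genes of this chromosome, 72 were called higher, 6 lower and the remaining 10 neither. Their median difference was 0.82, or 1.77-fold, with quartiles of 0.53 and 1.03. The same median relative to the wild type mean was 0.80, 0.82 and 0.80 on the 3 deletion arrays. FLO9, at 1.01, had 24 of the 88 genes above it and 64 below it. Its probe set can match several transcripts, so this place, and the values against the chromosome below, may not be those of FLO9 alone. FLO1, at 2.55, was exceeded by 1 of them, YAL064W.

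Both genes were therefore also read against their chromosome, as the level on each array minus the median level of the other chromosome I genes there. On this scale FLO1 stood at -1.47, -1.70 and -1.63 on the deletion arrays and at -3.61, -3.41 and -3.44 on the wild type arrays. A difference of 1.89 remained, or 3.70-fold, and the groups did not overlap (exact permutation p = 0.1, two-sided, the smallest possible). FLO9 stood at 0.54, 0.39 and 0.47 on the deletion arrays and at 0.13, 0.04 and 0.19 on the wild type arrays. Its difference was 0.35, or 1.27-fold, again without overlap (exact permutation p = 0.1). With chromosome I genes centred in this way in the whole fit, FLO1 had limma adjusted p = 1.6e-06 and FLO9 limma adjusted p = 0.0016. Both p-values measure the spread between arrays and not the spread among chromosome I genes. Within that second spread, 24 of the 88 other genes rose by more than FLO9. Subtracting the median change of the chromosome, a centre chosen after the data were seen, left 1.74 for FLO1 and 0.20 for FLO9.

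**Figure D3:**
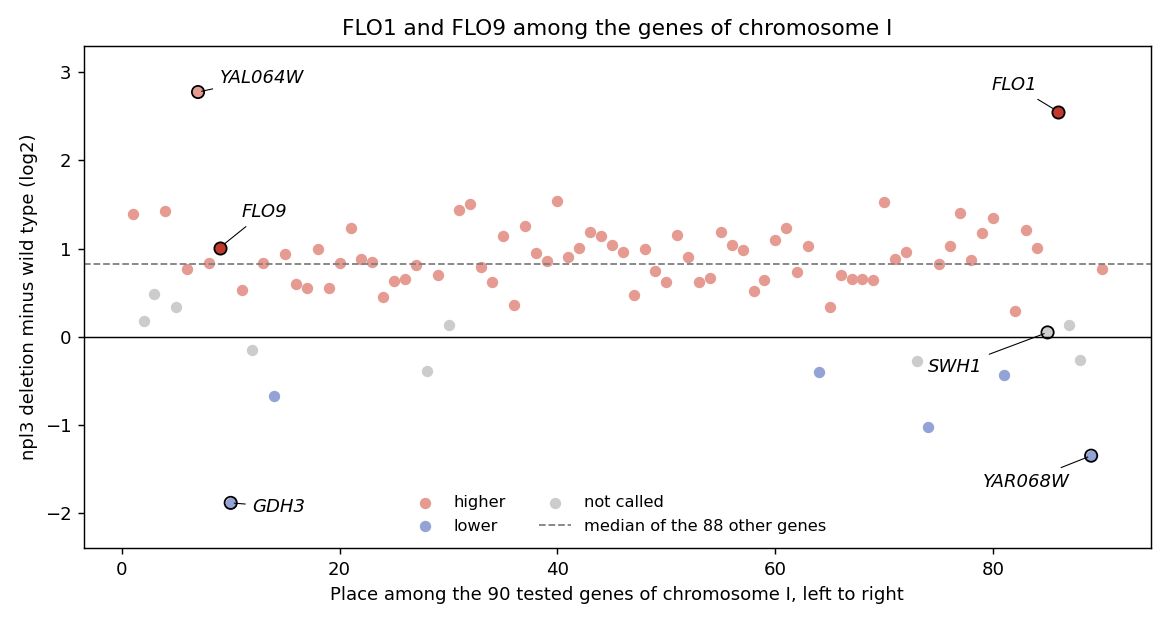
Difference between the npl3 deletion and wild type (log2, vertical axis) for the 90 tested genes of chromosome I in their order along the chromosome (horizontal axis), coloured by the test, with FLO1 and FLO9 as filled red points and the median of the 88 other genes, 0.82, as a dashed line. FLO9 lies near that line and FLO1 well above it, while the outlined neighbours range from -1.89 for GDH3 to 2.78 for YAL064W.

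The genes beside FLO1 and FLO9 did not follow a single direction. FLO1 is the fifth tested gene from the right end of the chromosome. On its left, the sterol-binding protein gene SWH1 differed by 0.05 (limma adjusted p = 0.623), while YAR035C-A rose by 1.01 and the carnitine acetyltransferase gene YAT1 rose by 1.21. On its right, YAR064W differed by 0.14 and YAR066W by -0.27, both on probe sets with an s or x suffix and neither called. YAR068W fell by 1.35 (SE 0.08). FLO9 is the ninth tested gene from the left end. On its left, YAL063C-A rose by 0.84, TDA8 by 0.77 and YAL064W by 2.78, the last to 6.49 in the deletion against 3.71 in wild type. On its right, the glutamate dehydrogenase gene GDH3 fell by 1.89 (SE 0.05), BDH2 rose by 0.53 and the butanediol dehydrogenase gene BDH1 differed by -0.15, which was not called. The rise of FLO1 was thus larger than that of each of its 6 nearest tested genes, and among those of FLO9 only YAL064W rose by more than FLO9 itself.

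FLO5, on chromosome VIII, could be described only through its neighbours. Of the 6 nearest tested genes, CRG1 rose by 0.52 and YHR212W-A rose by 0.80. YHR212W-A read 2.65 in the deletion and 1.85, below the background level, in wild type. BAT1, a branched-chain aminotransferase gene, fell by 0.22 and YHR213W-A fell by 0.61. YHR210C and YHR213W were not called.

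FLO10, on chromosome XI, has 5 tested genes within the same reach, since NFT1 and YKR104W are the only tested genes between it and the right end. YKR104W rose by 0.42 (SE 0.07) and the silencing factor gene SIR1 rose by 0.23, while the transcription factor gene BAS1 fell by 0.61 and NFT1 and SKG1 were not called. FLO10 itself, at 0.53, had the largest rise of this stretch.

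Genes with a like pattern were sought by the Euclidean distance between values centred on each gene's mean over the 6 arrays. Closest to FLO1 was YHR214C-D, on the chromosome VIII that also holds FLO5, at 7.04 in the deletion and 4.44 in wild type (difference 2.60, distance 0.23), followed by AIM26 on chromosome XI (2.32, distance 0.33). FLO9 was closest to DEP1 of chromosome I (0.99) and REF2 of chromosome IV (0.98), and FLO10 to SNZ1 (0.56) and MEP1 (0.59). AGA1 was closest to VHC1 (-0.67) and CYK3 (-0.63). For FLO11 these were YLL053C and LHS1, for FLO8 RRD1 and HRD3 and for FIG2 SHE9 and SSN8. All distances beyond those of FLO1 were 0.05 to 0.11.

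The regulators of the FLO genes were counted by role. Protein kinase A, switched on by cyclic AMP, activates Flo8, which works with Mss11. Of 10 tested genes of this branch, 6 fell, 0 rose and 4 were not called by limma (median -0.24, beside 0.01 over all genes). At an unadjusted p under 0.05, 0 were higher. These and the following counts stand beside the 32.9% of all genes called higher and the 28.9% called lower. The glucose receptor gene GPR1 fell by 0.61 (SE 0.05) and MGA1, a regulator of filamentous growth, fell by 0.36 (SE 0.11). RAS2, which activates adenylate cyclase, fell by 0.31, BCY1, the inhibitory subunit of the kinase, fell by 0.31 and the catalytic subunit gene TPK2 fell by 0.34. GPA2 fell by 0.18. FLO8, MSS11, CYR1 and TPK3 were not called.

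The filamentation MAP kinase branch ends at the transcription factors Ste12 and Tec1, which activate FLO11. Of its 14 genes, 8 rose, 3 fell and 3 were not called (median 0.22). STE12 was at 9.12 ± 0.07 in the deletion and 8.59 ± 0.08 in wild type (SD, n = 3), a rise of 0.53 (limma adjusted p = 2e-04), and TEC1 rose by 0.42. DIG1 and DIG2, which encode inhibitors of Ste12, rose by 0.44 and 0.20. CDC24, the exchange factor gene for Cdc42, rose by 0.82, the same as the median of its chromosome I. At the top of the branch, the signalling mucin gene MSB2 was at 8.57 ± 0.10 in the deletion and 10.19 ± 0.12 in wild type (n = 3), and fell by 1.61 (SE 0.08). The kinase genes KSS1 and STE7 fell by 0.37 and fell by 0.17.

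Of 12 other activators at FLO promoters, 5 fell, 1 rose and 6 were not called (median -0.10). PHD1, a transcription factor of filamentous growth, was at 6.94 ± 0.11 in the deletion and 8.38 ± 0.12 in wild type (SD, n = 3), and fell by 1.44 (SE 0.08). SWI1, a subunit of the SWI/SNF chromatin remodeller that opens the FLO1 promoter, fell by 0.88 (SE 0.06), and the daughter-cell factor gene ASH1 fell by 0.88. MSN1 rose by 0.20. The other SWI/SNF subunit genes of the list, SNF2, SWI3, SNF5, SNF6 and SNF12, were not called, with differences from -0.10 to 0.08.

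Repressors went both ways. Of 14 repressors and silencers, 6 rose, 3 fell and 5 were not called (median 0.02). TUP1 and CYC8, whose products form the corepressor that holds FLO1 off, differed by -0.11 and -0.08 and were not called. The histone deacetylase genes HDA1, HDA2 and HDA3 rose by 0.44, 0.21 and 0.29. HST2, a deacetylase gene of the Sir2 family, rose by 0.40, although its groups overlapped. SIR2 was at 7.35 ± 0.25 in the deletion and 7.89 ± 0.08 in wild type (SD, n = 3), and fell by 0.55 (SE 0.12). The other SIR genes of the list did not fall with it: SIR4 rose by 0.22, and SIR3 differed by 0.03 and was not called. NRG1, a glucose-dependent repressor gene, fell by 0.53 (SE 0.06), while NRG2 rose by 0.33. These are transcript levels, and neither binding nor protein activity was measured.

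Genes that act with the mating adhesins also divided. Of 10 partners and pheromone-induced genes, 5 fell and 3 rose, with 2 not called (median -0.24). AGA2, the binding subunit that Aga1 anchors, was at 8.87 ± 0.11 in the deletion and 9.42 ± 0.03 in wild type (SD, n = 3), and fell by 0.55 (SE 0.06, limma adjusted p = 2e-04). PRM1, which acts in the fusion of mating cells, fell by 1.21 (SE 0.13) and FIG1 fell by 0.77. FUS2 and ASG7 fell by 0.35 and fell by 0.39. SAG1, the alpha-agglutinin gene, rose by 0.48 (SE 0.09), and the fusion genes KAR5 and FUS1 rose by 0.37 and 0.36. Of the other a-specific genes, MFA1, MFA2 and STE6 fell by 0.88, fell by 0.62 and fell by 0.34. STE2 differed by 0.04 and was not called.

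**Figure D4:**
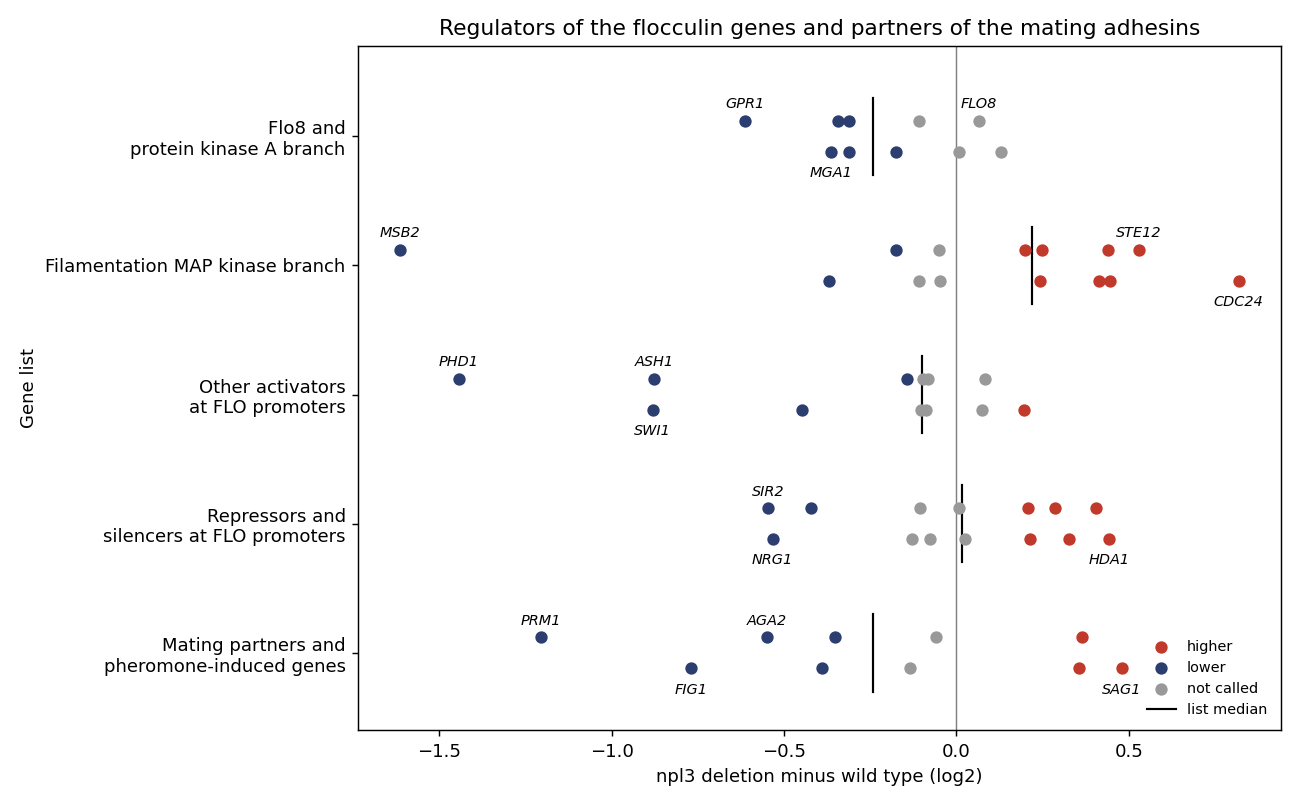
Difference between the npl3 deletion and wild type (log2, horizontal axis) for the tested genes of 5 lists (rows), red where called higher, blue where called lower and grey where not called, with list medians as black bars. The protein kinase A branch has no gene called higher, while each other list holds genes called higher and genes called lower. The MAP kinase branch has its median at 0.22, with MSB2 far below at -1.61.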

How the data were processed

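The authors deposited 1 table of log2 expression values for 10928 probe sets on 6 arrays. RMA and limma are named, per the submitters' processing notes, without versions or settings. RMA equalises the arrays and so hides a shift of most transcripts at once. The values were used as deposited. Of the probe sets, 7244 had 1 gene symbol, 1 had several and 3683 had none. By gene ID, 5498 matched the reference table (R64). The brightest probe set by the mean of all arrays stood for each of 47 genes with several, which left 5449 genes.

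The test was limma's moderated one (version 3.58.1, run in R version 4.3.3, with lmFit followed by eBayes, two-sided, no covariates), with Benjamini-Hochberg adjustment over all genes and a threshold of 0.05. The procedure was tested on simulated data. The number of arrays limits the precision. SciPy 1.17.1 gave exact permutation tests, and Python 3.11.15 the figures. The members and lists were chosen with earlier results of these data known. Genes named were the members, their 3 nearest tested genes on each side, the 2 largest called rises and falls of each list, the 2 most alike genes per member, NPL3, BAR1, LEU2 and mating type markers. Further list genes were picked for naming with their values in view. Alternatives tried comprised a replicate block, leaving out each array in turn, other normalizations, filters, variance models, probe set rules and thresholds. No gene, probe or protein sequences and no motif searches were used here. No coordinates are given, because the files name no build.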

Additional observations from a re-analysis of the deposited data

How the results depend on the processing

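The calls of FLO1, FLO9 and AGA1 kept their direction and passed the threshold of 0.05 under every alternative run that measured them. FLO9 could not be given without s and x probe sets. FLO10 (0.53) fell short of the fold of at least 1.5, under which 923 genes were called in all. With each array left out, FLO1 differed by 2.47 to 2.61, FLO9 by 0.96 to 1.05, FLO10 by 0.44 to 0.58, AGA1 by -0.70 to -0.59, FLO8 by 0.02 to 0.09, FIG2 by 0.12 to 0.23 and FLO11 by -0.078 to 0.0082, where 0.0082 was the value without npl3 deletion replicate 2. FIG2 was called in that setting alone, at 0.23, and its adjusted p ranged from 0.025 to 0.246 over all settings. FLO11 also turned sign under quantile normalization (0.0079) and was never called. Over all settings the number of members called ranged from 3 to 5 and that of all genes from 923 to 3545. Leaving out each array in turn gave 4 to 5 members and 2926 to 3288 genes.

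Against its chromosome, FLO1 stood at 1.82 to 1.94 and FLO9 at 0.31 to 0.39 with each array left out. FLO1 stood at 2.38 against its 10 nearest tested genes and at 1.74 against the median change of the chromosome, where FLO9 stood at 0.20. The replicate numbers were not treated as pairs, because no label says that they mark a shared batch or day. Same-numbered arrays deviated from their group means with correlations of -0.14, -0.07 and -0.19 across genes. With the replicate block, 3035 genes and 4 members were called, and FLO1 (adjusted p = 5.1e-05), FLO9 (1.5e-04), FLO10 (0.0046) and AGA1 (5.7e-04) remained called. The causes of these shifts were not tested.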

Other observations

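The genes around the other members moved in their own ways. Beside AGA1 on chromosome XIV, which fell by 0.64, the mitochondrial translation activator gene PET494 fell by 0.84 (SE 0.05), COQ2 of ubiquinone synthesis fell by 0.40 and ZRG17 fell by 0.15, while MVD1, TRM112 and FPK1 were not called. Around FLO8 on chromosome V, where FLO8 itself differed by 0.06, the nuclear pore genes NUP157 and GLE2 fell by 0.86 and fell by 0.26 and the meiotic gene MAM1 fell by 0.72, while SWI4, a G1 transcription factor gene, rose by 0.34 and LSM4 by 0.22. KAP123 was not called.

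Around FIG2 on chromosome III, the kinase gene KIN82 rose by 0.86 (SE 0.14), and ABP1, YCR087C-A, CSM1, YCR090C and MSH3 were not called. Beside FLO11 on chromosome IX, MRS1, a mitochondrial splicing factor gene, rose by 0.40 and YIR018C-A fell by 0.35, with YAP5, MET28, YIR021W-A and SEC11 not called.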
